A study of Mus musculus with 6 samples.

Results

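The genes described here were 34 mouse genes that mark neurons, their synapses and hindbrain nerve cells, read in 6 RNA-sequencing libraries of microglia, which are the brain's own immune cells. The genes were taken by symbol, not by any measured value. Of the 34 symbols, 32 had a row in the table of 26789 genes. Slc6a5, the glycine transporter of inhibitory endings, and Tlx3, a hindbrain transcription factor, are not analysed here. Of the 32, 31 averaged 10 or more normalized counts across libraries and entered the test, which covered 18007 genes in all. Slc17a7, with a mean of 2.59 normalized counts, did not enter it.

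By the study's methods, each library held microglia from the rostral part of the nucleus of the solitary tract (NST), the first brainstem station for taste, at P15, and cells were taken with magnetic beads against CD11b, a surface protein of microglia and other myeloid cells. The 3 E3–E12 diet libraries came from offspring whose mothers ate low-sodium chow from E3 to E12 and standard chow at other times, and the 3 control libraries from offspring of mothers on standard chow throughout. By the methods for the anatomy, the mothers of E3–E12 diet mice also received distilled water during the diet and tap water after it. The methods name C57Bl/6 as the control strain for the anatomy, and no strain is given for these libraries. Each library pooled tissue from 6 littermates of 1 litter, so n = 3 litters per group and single animals cannot be told apart. The design text names laser microdissection in place of bead sorting, so the way in which the cells were isolated is not settled by these sources.

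A library of sorted microglia can hold neuronal RNA, whether from other cells or from material that microglia have taken up, and such libraries cannot tell these sources apart. By flow cytometry, the study reports that most live cells of the sorted fraction carried both CD11b and CD45. Neurons release transmitter when the vesicle protein synaptobrevin (Vamp2) joins syntaxin (Stx1a) and SNAP-25 (Snap25), with synaptotagmin 1 (Syt1) as the calcium sensor. On the receiving side, AMPA and NMDA receptor subunits sit on a scaffold that includes PSD-95 (Dlg4). In the NST, glutamatergic and GABAergic neurons lie side by side. The study reports label of taste nerve endings inside NST microglia, and not uptake from these local neurons. In such bulk libraries, fewer neuronal cells or fragments cannot be told apart from less RNA in each.

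Normalized counts are read counts per gene that the authors rescaled between libraries, and low values show that the divisor was not 1 number per library. Their totals lay between 9407141 and 17204618 per library, and raw read totals were not given. The control library numbered 2 stood apart, with the highest total and with 10640 genes listed at 0 against 3459 to 7135 in the other 5. It also listed 7 of the 31 tested neuronal genes at 0, or 22.6%, against 16.2% of all genes tested. Some results below are therefore given without it as well, and ranges with each library left out come at the end. An exact 0 in this table may be a failed estimate and not a lack of reads, so such genes are said only to be listed at 0. The 18 microglial markers together made up 12600 to 34500 CPM, here meaning normalized counts per 1000000 of the library total. Tyrobp, an adaptor protein of microglial surface receptors, was listed at 0 in all 3 E3–E12 diet libraries and at 182, 59.5 and 1494 normalized counts in the controls.

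No neuronal, synaptic or hindbrain gene differed between E3–E12 diet mice and controls beyond the spread between litters. In limma, a linear model fitted across all genes on log2(normalized count + 1), 0 of the 31 genes had an adjusted p under 0.1 (Benjamini-Hochberg over 18007 genes), and the background was 0.0%, or 0 genes. At an unadjusted p under 0.05, 0 of the 31 passed against 327 of all genes, or 1.82%. Taking instead genes whose groups did not overlap, where all 3 libraries of one group lie above all 3 of the other, the count was again 0 of 31, with a background of 5.9%. The adjusted p of each of the 31 genes was 0.999 in limma. With DESeq2, the study itself lists genes as up- or downregulated by the diet, Vwf and Ttr among them. Neither passed in the present fit. Vwf differed by 2.48 on the log2 scale (SE 1.60, unadjusted p = 0.168 in limma) and Ttr by -2.48 (SE 3.47, unadjusted p = 0.499 in limma). The lack of calls in limma therefore does not show that these libraries hold no diet difference, and why the tests differ was not tested.

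In direction, 17 of the 31 genes were numerically higher in E3–E12 diet mice and 14 lower. That is 54.8% higher, beside 54.4% of all genes tested. The median log2 fold change was 0.08 for the neuronal genes and 0.09 for all genes. The extremes were Tubb3, a neuronal tubulin, at -1.72 and Syt1 at 2.34, and 8 of the 31 genes had a log2 fold change past 1 in either direction, beside 5205 of the 18007 genes tested. Under quantile normalization 15 of the 31 were higher and the median of the neuronal genes turned to -0.05, with that of all genes at -0.0034. The 95% intervals were wide: half-width is here the distance from the estimate to either limit, and its median was 2.41 on the log2 scale for the neuronal genes and 2.03 for all genes. A missing call here does not show that the groups were alike.

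**Figure D1:**
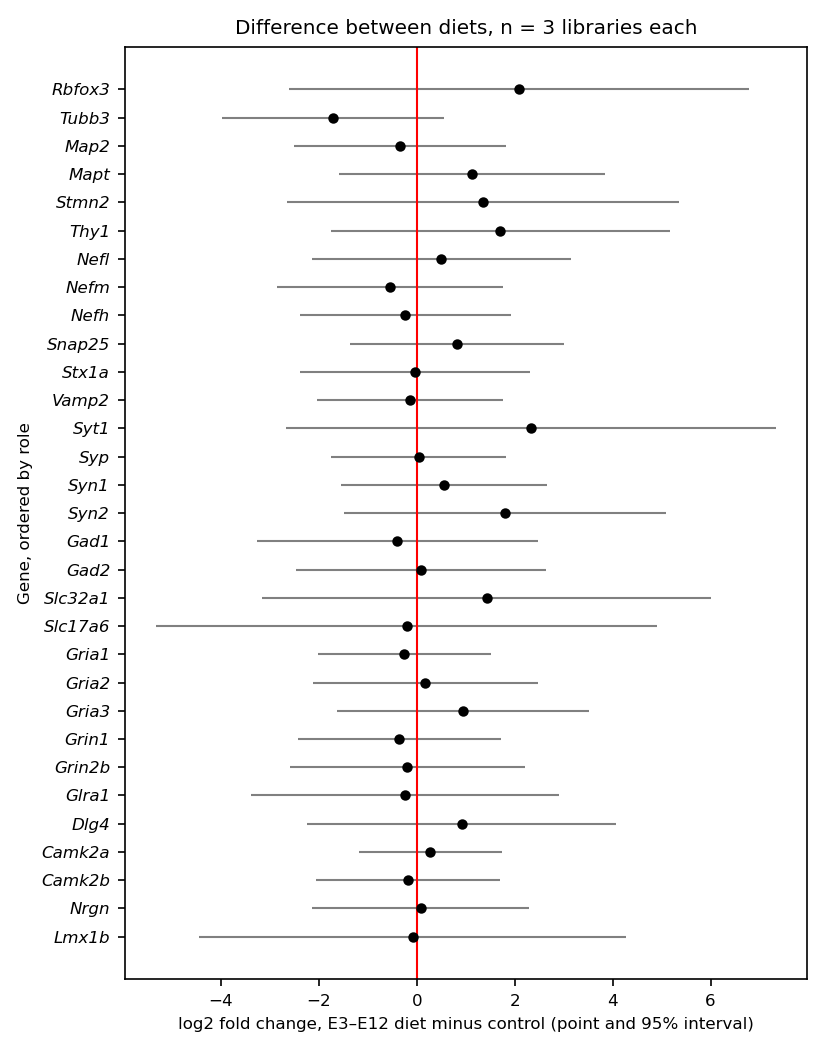
Log2 fold change on the log2(normalized count + 1) scale, E3–E12 diet minus control, for the 31 neuronal genes that entered the test, ordered by role, with n = 3 libraries per group. Points are limma estimates and bars their 95% intervals, and every bar crosses 0.

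Among the pan-neuronal genes, the microtubule proteins Map2, found in dendrites, and Mapt, the axonal protein tau, had the highest means. Map2 had 1328, 1486 and 284 normalized counts in controls 1, 2 and 3, and 1456, 435 and 443 in E3–E12 diet libraries 1, 2 and 3. The groups overlapped, since a high and a low Map2 value occurred in each. Map2 averaged 1033 ± 653 normalized counts in controls and 778 ± 587 in E3–E12 diet mice (SD, n = 3), with a log2 fold change of -0.33 and a 95% interval from -2.50 to 1.83. Mapt stood at 790, 64.8 and 112 normalized counts in the controls, and at 683, 624 and 143 in the E3–E12 diet libraries. Here the first library of each group and the second E3–E12 diet library were high and the other 3 low. Mapt had a log2 fold change of 1.13 (SE 1.14), which became 0.40 without control library 2.

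Tubb3 came nearest to a difference. It had 49.6, 3.96 and 10.8 normalized counts in controls and 5.66, 2.25 and 2.84 in E3–E12 diet libraries. Its groups overlapped only through the control library numbered 2, the one with many zeros, whose 3.96 lay below the highest E3–E12 diet value. Tubb3 differed by -1.72 on the log2 scale (SE 0.95, 95% interval -3.99 to 0.55), and the exact two-sided permutation p was 0.2, where 3 against 3 libraries can reach no less than 0.1. Without control library 2, Tubb3 was the 1 neuronal gene of 31 whose groups did not overlap, beside 14.4% of all genes under the same reduction, and its adjusted p in limma stayed above the threshold. All its values were low, which leaves large relative errors.

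A further 3 pan-neuronal genes shared a feature, a value listed at 0 in control library 2. These were Rbfox3, the neuronal splicing factor known as NeuN, Stmn2, a growth-cone protein, and Thy1, a surface protein of projection neurons. Rbfox3 had 117, 0 and 202 normalized counts in controls and 157, 96.0 and 121 in E3–E12 diet libraries. The fitted log2 fold changes were 2.09 for Rbfox3, 1.36 for Stmn2 and 1.71 for Thy1, and each rests on that single zero and on the pseudocount. Without control library 2, they became -0.33, -0.63 and 0.14.

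**Figure D2:**
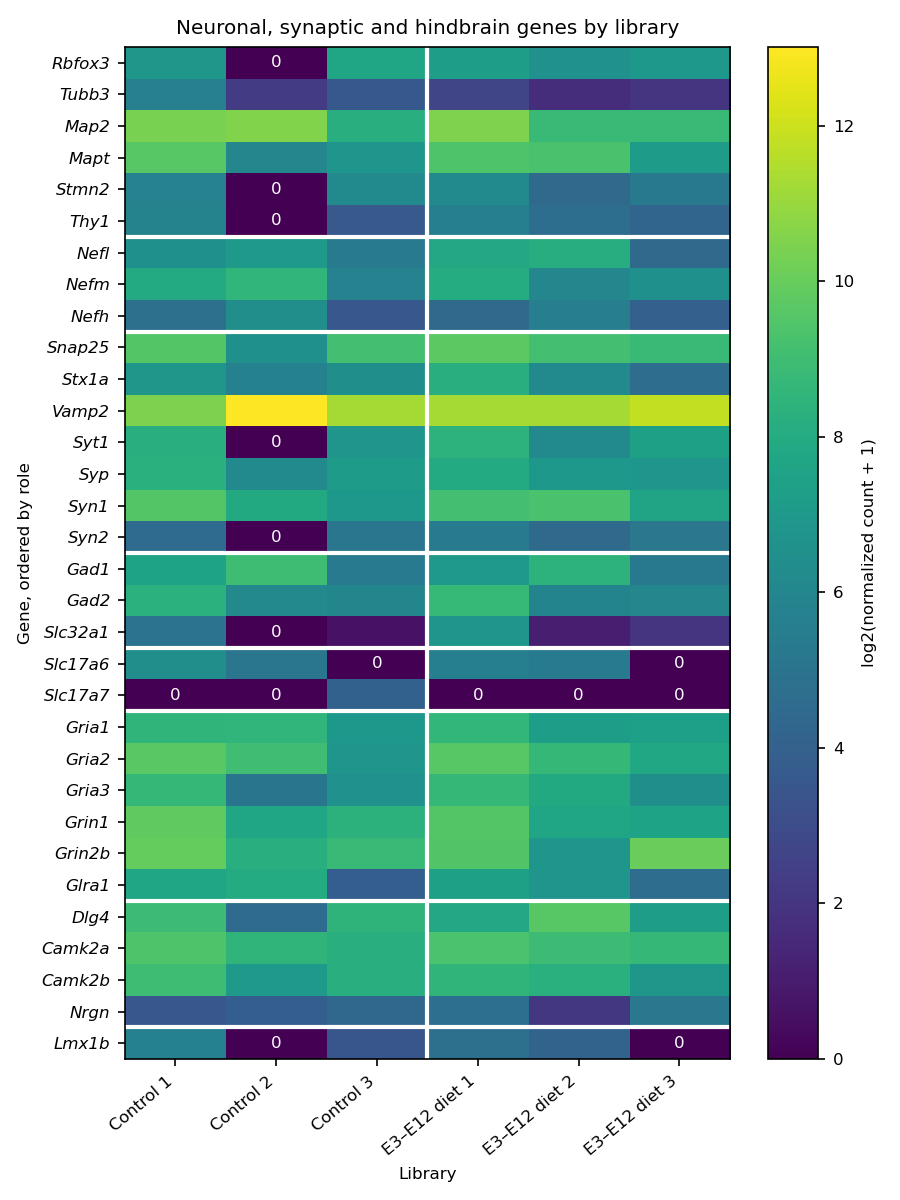
Log2(normalized count + 1), shown by colour, for the 32 neuronal genes with a row in the table, in each of the 3 control and 3 E3–E12 diet libraries. White horizontal lines separate roles, the white vertical line separates groups, and a printed 0 marks a gene listed at 0. Zeros gather in control library 2, which listed 8 of the 32 genes at 0, beside 10640 of all 26789 genes in the table.

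Neurofilaments are the intermediate filaments of axons. Their medium chain Nefm had 251, 380 and 53.2 normalized counts in controls against 267, 64.4 and 92.7 in E3–E12 diet libraries. The light chain Nefl had 92.9, 131 and 40.4 normalized counts in controls against 233, 273 and 21.8. Both genes spanned more than a 7-fold range over the 6 libraries, and both groups held high and low values. The log2 fold changes were -0.55 (SE 0.96) for Nefm and 0.50 (SE 1.11) for Nefl. The pair are neighbours on chromosome 14 on opposite strands, and in the GENCODE annotation of GRCm38 32.8% of the exon bases of Nefl also lie in exons of Nefm. Whether counting used strand is not given in the sources used here, so their reads may be shared. The heavy chain Nefh, at a mean of 34.6 normalized counts, had a log2 fold change of -0.23 (SE 0.90).

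The presynaptic release genes included the most abundant gene of all 32. Vamp2 had 1395, 8262 and 2443 normalized counts in controls and 2436, 2411 and 3587 in E3–E12 diet libraries. Its highest value was in control library 2, where 11 of the 31 tested genes had their lowest value (35.5%, beside 33.8% of all genes). Vamp2 averaged 4033 ± 3700 normalized counts in controls and 2811 ± 672 in E3–E12 diet mice (SD, n = 3), and the log2 fold change of -0.14 (95% interval -2.04 to 1.76) turned to 0.10 under quantile normalization. The log2 fold change was 0.58 without control library 2. Vamp2 is also used outside neurons for general vesicle traffic, and it made up between 11.2% (control library 1) and 60.5% (control library 2) of the summed neuronal counts, so sums are given below without it as well.

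Snap25 had 749, 91.9 and 551 normalized counts in controls and 847, 555 and 452 in E3–E12 diet libraries. Control library 2 was again the low one and the remaining 5 lay within a 2-fold range of each other. Snap25 had a log2 fold change of 0.82 (SE 0.92), which became -0.11 without control library 2. Per kilobase of exon, Vamp2 stood 3.32 times as high as Snap25 in control library 1, 160 times in control library 2 and 7.90 times in control library 3, although both proteins belong to one complex. In the E3–E12 diet libraries the same ratio was 5.13, 7.75 and 14.1.

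Of the other release genes, Syn1, a vesicle phosphoprotein, had 732, 236 and 122 normalized counts in controls and 566, 612 and 195 in E3–E12 diet libraries, with a log2 fold change of 0.56 (SE 0.88). Syp, the vesicle protein synaptophysin, differed by 0.05 (SE 0.75) and Stx1a by -0.04 (SE 0.98) on the log2 scale. Neither has a direction that held, since Syp became -0.15 under quantile normalization and Stx1a 0.08 with equal library totals. An antisense gene covers 16.8% of the exon bases of Syp. Syt1 and Syn2, a second synapsin, were listed at 0 in control library 2. Their fitted log2 fold changes of 2.34 and 1.80 were -0.16 and 0.19 without that library.

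Syn1 also carried the one promoter in which either of 2 longer motifs was found, and so its sequence is shown. The stretch lies at chrX:20921005-20921168 on the minus strand of GRCm38.p6, as RefSeq gives it, and is written 5′ to 3′ in the direction of Syn1 transcription. It lies upstream of the annotated Syn1 gene (X, 20860511 to 20921004). The first run of capitals is the left arm of RE1, the site of the repressor REST that keeps neuronal genes silent in other cells, and the second is the cyclic AMP response element.

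Syn1 promoter: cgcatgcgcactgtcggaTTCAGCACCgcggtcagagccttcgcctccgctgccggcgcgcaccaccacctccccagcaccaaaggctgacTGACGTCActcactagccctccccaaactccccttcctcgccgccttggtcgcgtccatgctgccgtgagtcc

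The RE1 arm, TTCAGCACC, lies 232 to 224 bases before the RefSeq start and the cyclic AMP response element, TGACGTCA, 159 to 152 bases before it. Searched on both strands, the RE1 arm was present in 0.371% of 32851 promoters and the cyclic AMP response element in 1.79%. Promoter entries were found for 21 of the 34 genes, and of these 1 had the RE1 left arm, 1 the cyclic AMP response element and 11 the short RE1 right arm GGACAG, which 22.2% of all promoters hold. The counts are of genes, which have 27 promoters among them, and the shares are of promoters, so they are not to be compared directly. A match of letters is a description and not a site of binding.

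No inhibitory transmitter gene passed the test, and the genes were not alike in where they were high. Gad1 and Gad2 make GABA from glutamate and are used by the same neurons. Gad1 had 188, 493 and 39.8 normalized counts in controls and 126, 345 and 36.8 in E3–E12 diet libraries. Gad2 had 321, 67.8 and 61.8 normalized counts in controls and 427, 58.4 and 64.4 in E3–E12 diet libraries. Gad1 was thus highest in the second library of each group, and Gad2 in the first. The log2 fold changes were -0.40 (SE 1.20) for Gad1 and 0.09 (SE 1.07) for Gad2, and the latter became -0.05 under quantile normalization. Slc32a1, the vesicular GABA transporter, was at 30.2, 0 and 0.538 normalized counts in controls and at 114, 1.12 and 2.84 in E3–E12 diet libraries, high in the first library of each group. Of its exon bases, 24.9% are shared with an antisense gene.

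The vesicular glutamate transporters were among the lowest genes. Slc17a6, or VGLUT2, is the form used by most glutamatergic brainstem neurons. Slc17a6 had 85.2, 33.9 and 0 normalized counts in controls and 48.8, 38.2 and 0 in E3–E12 diet libraries. It was listed at 0 in the third library of both groups. The log2 fold change of -0.21 (SE 2.14) turned to 0.01 with equal library totals. Slc17a7, or VGLUT1, more typical of cortex, was listed at 0 in 5 of 6 libraries and at 15.5 normalized counts in control library 3. Per kilobase of exon, the summed level of Gad1 and Gad2 exceeded that of Slc17a6 in all 6 libraries, with 79.3 against 15.8 in control library 1 and 89.1 against 9.05 in E3–E12 diet library 1. The vesicular GABA transporter Slc32a1 did not do so throughout. It lay below Slc17a6 in control libraries 1 (10.8 against 15.8) and 2 (0 against 6.28) and in E3–E12 diet library 2 (0.401 against 7.08). In the other libraries Slc32a1 lay above Slc17a6, which was listed at 0 in the third library of both groups.

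Among the receptor genes, the NMDA receptor subunit Grin2b had 988, 288 and 457 normalized counts in controls and 715, 114 and 1067 in E3–E12 diet libraries. The E3–E12 diet values took both the lowest and the highest place. Grin2b averaged 578 ± 366 normalized counts in controls and 632 ± 482 in E3–E12 diet mice (SD, n = 3), with a log2 fold change of -0.19 (95% interval -2.60 to 2.22). The AMPA receptor subunit Gria2 had 833, 525 and 108 normalized counts in controls and 799, 404 and 213 in E3–E12 diet libraries. In both groups Gria2 was highest in the first library and lowest in the third. Gria2 had a log2 fold change of 0.18 (SE 0.96). The other 4 receptor genes ranged from -0.35 for Grin1, the obligatory NMDA subunit, to 0.95 for Gria3, an AMPA subunit, with Gria1 at -0.25 and Glra1, the glycine receptor subunit of brainstem and cord, at -0.23. The value of Gria3 fell to 0.09 without control library 2. Antisense genes cover 13.5% of the exon bases of Grin1 and 5.84% of those of Glra1.

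Of the postsynaptic genes, Camk2a, a calcium-dependent kinase of excitatory synapses, varied least. It had 693, 361 and 282 normalized counts in controls and 632, 488 and 410 in E3–E12 diet libraries. The highest value was 2.45 times the lowest, and Camk2a averaged 446 ± 218 normalized counts in controls and 510 ± 113 in E3–E12 diet mice (SD, n = 3). The log2 fold change of Camk2a was 0.28 (95% interval -1.18 to 1.74). Dlg4 varied most, with 478, 22.1 and 357 normalized counts in controls and 227, 788 and 148 in E3–E12 diet libraries, and its highest value was 35.6 times its lowest. Dlg4 had a log2 fold change of 0.92 (SE 1.32), which became -0.47 without control library 2. Camk2b, the sister kinase, differed by -0.17 (SE 0.79), and Nrgn, a calmodulin-binding protein of forebrain spines, by 0.08 (SE 0.93), which became -0.17 under quantile normalization.

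Lmx1b, a transcription factor of hindbrain serotonergic and dorsal brainstem neurons, was the 1 hindbrain factor with a row. It had 52.5, 0 and 10.2 normalized counts in controls and 27.2, 16.8 and 0 in E3–E12 diet libraries. Each group thus had a library listed at 0, and the first library of each group was highest. The log2 fold change was -0.08 (SE 1.82).

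Levels between genes were compared as mean normalized counts per kilobase of exon over the 6 libraries. Vamp2 led with 899, followed by Syn1 with 124, Snap25 with 79.7, Camk2a with 64.0, Map2 with 55.0 and Mapt with 53.5. At the lower end were Syn2 with 3.66, Lmx1b with 3.65 and Slc17a7 with 0.480. Vamp2 lay above Syn1 in all 6 libraries, and from Syn1 to Mapt the ranges of neighbouring genes over the libraries overlapped.

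Libraries of the same group differed widely. The first control library and the first E3–E12 diet library were both above the other 4 for 15 of the 31 neuronal genes, or 48.4%, beside 15.3% of all genes tested. Without control library 2 the count was 19 of 31 genes, beside 3602 of the 18007 genes tested. In one or the other of this pair of libraries, 20 of the 31 genes (64.5%) had their highest value, against 35.6% of all genes. This split crosses the diet groups, and the replicate numbers are not stated to mark a shared day or batch. No test was made of it, because it was seen in the data.

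Summed over the 32 genes, neuronal counts made up 1287, 794 and 545 CPM in controls 1, 2 and 3. In E3–E12 diet libraries 1, 2 and 3 they made up 1374, 781 and 548 CPM. The mean CPM, 875 ± 378 in controls against 901 ± 426 in E3–E12 diet mice (SD, n = 3), differed by much less than the libraries within each group. Without Vamp2 the sums were 1142, 314 and 340 CPM in controls and 1115, 565 and 303 in E3–E12 diet libraries. The receptor genes contributed 382 and 343 CPM in the first library of each group and 93.9 to 119 in the other 4.

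Markers of microglia ran the other way. The 18 markers summed to 13170 and 12600 CPM in the first control and first E3–E12 diet library, and to between 26330 and 34500 in the remaining 4. Per 1000 microglial marker counts, the neuronal genes gave 97.7 and 109 counts in those first libraries and 18.8 to 29.6 in the others. The 12 astrocyte markers were also highest in the same pair of libraries, at 1283 and 1706 CPM against 174 to 653 elsewhere. The 10 endothelial markers gave 1683 and 1565 CPM there against 322 to 1273. The 10 oligodendrocyte markers were at 4541 CPM in control library 1 and 1884 in E3–E12 diet library 1, and E3–E12 diet library 2 had 2242. The 9 erythroid and neutrophil markers, whose cells can also carry CD11b or come with blood, lay between 46.2 and 175 CPM and were highest in control library 2. The part of other cell types in the neuronal values was not tested.

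**Figure D3:**
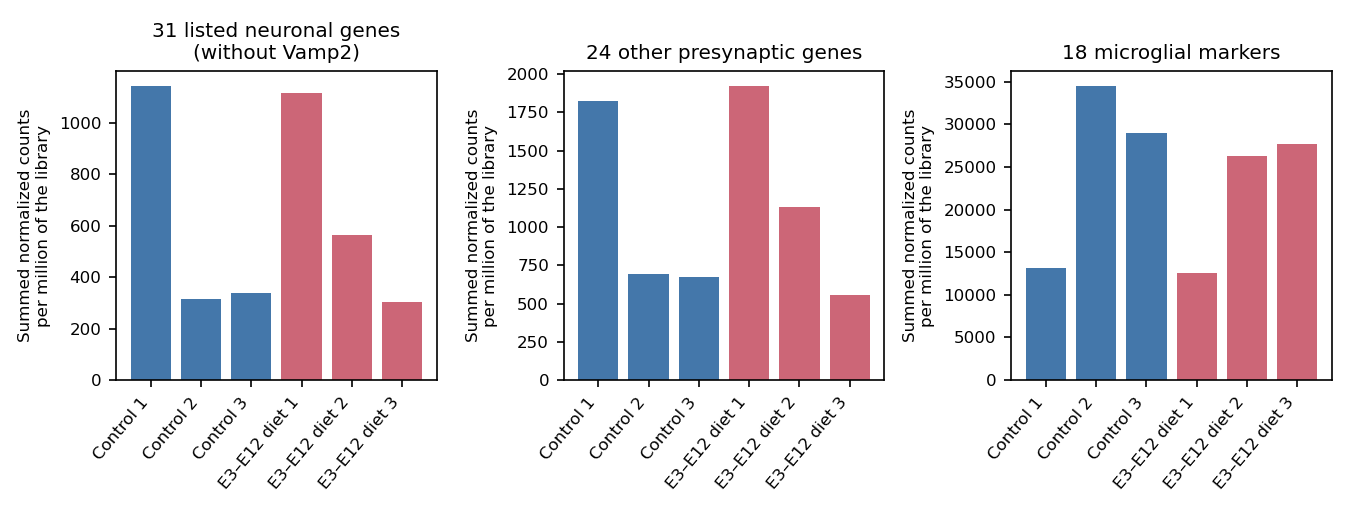
Summed normalized counts per 1000000 of the library total (CPM), 1 bar per library, for the 31 neuronal genes other than Vamp2 (left), 24 other presynaptic genes (middle) and 18 microglial markers (right), with controls in blue and E3–E12 diet libraries in red. The first library of each group has the highest neuronal and presynaptic sums, 1142 and 1115 CPM for the neuronal genes, and the lowest microglial sum, and the vertical scales differ between panels.

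Related genes outside the 34 showed no called difference by diet either. Of 18 other neuronal cytoskeleton, RNA-binding and growth genes, E3–E12 diet mice had numerically higher values for 12 and lower for 6, with a median log2 fold change of 0.31. The 24 other presynaptic genes split 14 higher and 10 lower (median 0.32), the 22 tested receptor and postsynaptic genes 13 and 9 (median 0.23), and the 12 tested hindbrain, viscerosensory and taste afferent genes 7 and 5 (median 0.08). In limma, none of these 4 lists had a gene with an adjusted p under 0.1 or an unadjusted p under 0.05. Their sums were also highest in the first library of each group, with 1823 and 1923 CPM for the presynaptic list against 555 to 1133 in the other 4. For the hindbrain and afferent list the sums were 69.9 and 78.0 CPM against 10.1 to 20.7.

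The median of the list depended on single libraries. Without control library 1, the median log2 fold change of the 31 genes was 0.65 and 25 were numerically higher in E3–E12 diet mice. Without E3–E12 diet library 1 the median was -0.30 and 11 were higher. Without E3–E12 diet library 3 it was 0.65, with 24 higher. In the same 3 fits the median over all genes was 0.18, 0.04 and 0.11. With each single library left out, 0 of the 31 genes passed the adjusted threshold in limma.

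**Figure D4:**
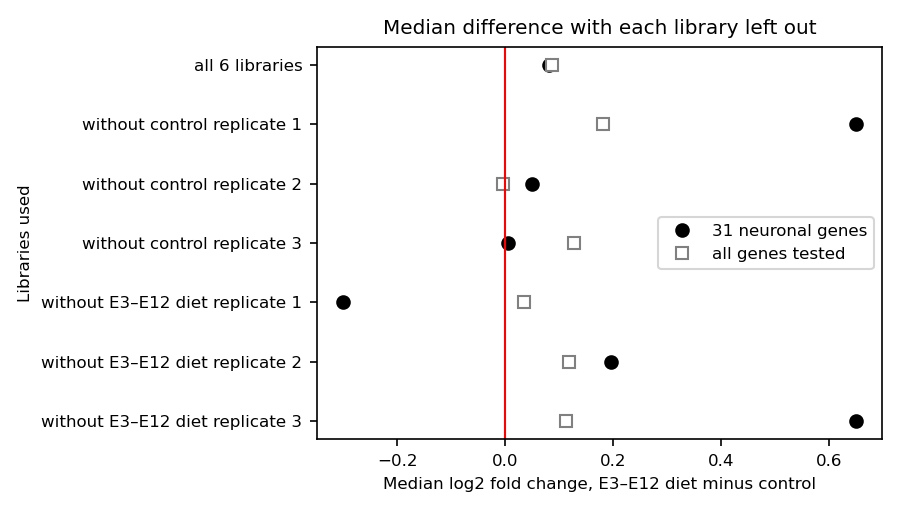
Median log2 fold change, E3–E12 diet minus control, for all 6 libraries and after leaving out each one, for the 31 neuronal genes (filled circles) and all 18007 genes tested (open squares). The neuronal median runs from -0.30 without E3–E12 diet library 1 to 0.65 without control library 1.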

How the data were processed

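RNA sequencing measured 6 libraries of NST microglia, 3 per group. Per the labels and the submitters' processing notes, FastQC, STAR, featureCounts and DESeq2 were used by the authors with GRCm38, and versions are not given in the sources used here. The labels give 75-bp reads and the study's methods another length. The deposited values are a signal that the authors made, DESeq2-normalized counts on a linear scale. The table's name refers to surrogate variable analysis, but no such adjustment is described in the sources used here. Low values were not whole multiples of 1 step, so reads could not be recovered and no count model was used.

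Gene identifiers were matched to symbols with GENCODE (GRCm38). The 18007 genes that averaged 10 or more normalized counts were tested with limma 3.58.1 in R 4.3.3 on log2(value + 1), with Benjamini-Hochberg adjustment and a threshold of 0.1. A fold change on this scale understates that of low genes. Single genes also had an exact two-sided permutation test over 20 relabelings. The fit was tested on simulated data with independent normal noise for each gene. That simulation had no listed zeros and no library that stood apart, so it does not show how the fit behaves on these data. Litters were the replicates, and p-values measure the spread between these 3 pools per group. Sums in CPM divide by each library's total, and per-length values by GENCODE exon bases. Values per library were given for the 2 members of highest mean in each role, for members whose groups did not overlap or that had an unadjusted p under 0.05 (none), and for others chosen after their values were seen (Tubb3, Rbfox3, Syn1, Slc32a1). The members and lists were chosen with earlier results of these data known. Alternatives were other pseudocounts, filters, scalings, variance models, a replicate block, a residual component and each library left out.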

Additional observations from a re-analysis of the deposited data

How the results depend on the processing

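In limma, 0 genes passed the adjusted threshold in every fit except that restricted to genes with a mean of at least 50. There 1 gene passed (Prdm4, named after its values were seen), and no neuronal gene passed in any fit. The fits tested 18007 genes, except 26789 without a filter and 12973 with a mean of at least 50. The count of neuronal genes with an unadjusted p under 0.05, 0 as reported, was 1 (Tubb3, beside 491 of all genes) under quantile normalization, 5 (Rbfox3, Syn2, Syt1, Thy1 and Tubb3, beside 1423) with the first residual principal component as a covariate, and 0 to 1 with each library left out, the 1 being Tubb3 without control library 2 (beside 429). The component was taken from the same spread within groups that it then removes, so its smaller p-values are no support for a difference. Of the 5 genes, Rbfox3, Syn2, Syt1 and Thy1 were listed at 0 in control library 2. Without that library, chosen for this after seeing the data, 1 neuronal gene had groups that did not overlap, against 0 with it. The causes were not tested. The median log2 fold change of the neuronal genes ranged from -0.30 to 0.65 over fits with a library left out. Equal library totals moved the median of all genes from 0.09 to 0.20 and that of the neuronal genes to 0.19, so changes are read against that shift. Quantile normalization moved them to -0.0034 and -0.054, which turned the sign for the neuronal genes. The replicate numbers were not used to pair libraries: same-numbered deviations correlated at 0.26, 0.04 and 0.14, and control 2 correlated better with E3–E12 diet library 3. With a replicate block, 0 genes passed and 468 had an unadjusted p under 0.05, against 327 without, with 0 neuronal genes among either.

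Of 270 fitted values under other settings, 7 changed sign: Stx1a (0.0245 with a pseudocount of 10, 0.0823 with equal library totals), Vamp2 (0.10), Syp (-0.15), Gad2 (-0.054) and Nrgn (-0.17) under quantile normalization, and Slc17a6 (0.0056) with equal library totals. The filters, the variance model, the replicate block and the residual component left each fold change as it was by construction. Among these settings, only the pseudocounts and scalings could change a sign, so the share of 270 overstates how well directions held. Of 186 values with a library left out, 48 changed sign. The direction held in every fit for Mapt, Thy1, Syn2, Gria3 and Camk2a (higher) and Tubb3 (lower), none of them past the adjusted threshold. The other 25 had these ranges of log2 fold change with a library left out: Rbfox3 -0.33 to 3.50, Map2 -1.10 to 0.0917, Stmn2 -0.63 to 2.45, Nefl -0.13 to 1.66, Nefm -1.39 to 0.0138, Nefh -0.92 to 0.52, Snap25 -0.11 to 1.40, Stx1a -0.95 to 0.81, Vamp2 -0.70 to 0.58, Syt1 -0.16 to 3.94, Syp -0.46 to 0.59, Syn1 -0.0279 to 1.26, Gad1 -1.37 to 0.43, Gad2 -0.84 to 0.85, Slc32a1 -0.35 to 2.98, Slc17a6 -2.13 to 1.62, Gria1 -0.78 to 0.0184, Gria2 -0.69 to 0.78, Grin1 -0.99 to 0.25, Grin2b -0.82 to 0.78, Glra1 -1.55 to 0.58, Dlg4 -0.47 to 1.72, Camk2b -0.71 to 0.32, Nrgn -0.50 to 1.04, Lmx1b -1.62 to 1.41. Raw depth was not given, so no counting interval or detection limit is stated.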

Other observations

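Outside the 34 genes, Dlg3, a scaffold of the family of PSD-95, had groups that did not overlap, as did 5.9% of all genes tested, and it did not pass the adjusted threshold in limma (adjusted p = 0.999). It had 106, 38.4 and 133 normalized counts in controls and 194, 159 and 183 in E3–E12 diet libraries, with a log2 fold change of 1.12 (SE 0.67). Dlg3 was singled out after its values were seen.

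Markers of the choroid plexus, the epithelium that makes cerebrospinal fluid, varied widely between libraries. The 8 markers summed to 757, 45.9 and 1622 CPM in controls 1, 2 and 3. In E3–E12 diet libraries 1, 2 and 3 the sums were 4346, 9.27 and 44.7. Oligodendrocyte precursor markers summed to 569, 535 and 79.0 CPM in controls, against 937, 679 and 58.0 in E3–E12 diet libraries, and were lowest in the third library of each group.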
